A study of Mus musculus with 8 samples.

Results

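The 32 genes described here are known from fat cells and from the breakdown of stored fat, and were followed in whisker follicles of ApcMin/+ mice given the compound E7386. They were listed by name, as genes of the adipocyte and of lipolysis, with no threshold on their values, though earlier results of these data were known when the list was made. All 32 had a probe among the 37018 genes of the array, and 31 of them were among the 25353 genes that were measured well enough to be tested. Ucp1, the uncoupling protein that defines heat-producing fat cells, was not well above background on any of the 8 arrays and was not tested, with normalised log2 signals of -6.78 to -5.87 in the E7386 group and -7.85 to -6.13 in the vehicle group. All mice were female and carried the Min allele of Apc, which truncates a protein needed for the breakdown of beta-catenin. The E7386 group (4 samples) received 30 mg/kg by mouth, 2 doses a day, in 4 cycles of 5 days with and 2 days without dosing that began at 8 weeks of age, and follicles were taken 6 h after the last dose. E7386 is described as a compound that interferes with the partnership of beta-catenin and the coactivator CBP. The other group (4 samples) received vehicle on the same schedule, starting at the same age. Its follicles were taken at the same time after the last dose. Total RNA of whole whisker follicles was hybridised to 1-colour Agilent arrays, and the comparison asks which genes differ after the course of dosing. Nothing in the labels ties each sample to a mouse of its own, and the p-values therefore speak of the spread between these samples, which may in part be technical.

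A fat cell stores triglyceride in a large droplet that is coated by perilipins and enlarged with the help of Cidec. Hormones acting through the beta-3 adrenergic receptor start lipolysis, in which Pnpla2, Lipe and Mgll remove the fatty acids one after another, while Abhd5 helps Pnpla2 and G0s2 holds it back. New fatty acids arrive through lipoprotein lipase on the capillary wall, and the glycerol backbone is made from glucose or, through Pck1, from smaller precursors. A whisker follicle is a hair follicle in a blood-filled sinus with its own striated muscle, and fat lies in the skin around it. Several of the 32 genes, among them Slc2a4, Gpd1, Cd36, Lpl and Plin4, are also known from skeletal muscle.

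Promoter windows from RefSeq (GRCm38.p6), reaching from 250 bases before to 50 bases after the transcription start, were found for 25 of the 32 genes. Those of the 3 genes whose mean gives the fat content of an array, Adipoq (chr16:23146286-23146585, plus strand), Cfd (chr10:79890603-79890902, plus strand) and Plin1 (chr7:79732727-79733026, minus strand), are shown, since their levels moved together across the arrays. That of Plin4 (chr17:56109733-56110032, minus strand) is shown beside them because Plin4 had the smallest p of the 31 genes between E7386 and vehicle. Each is written 5′ to 3′ on the strand of its gene, with matches of TTGCNNAA, the core bound by C/EBP factors, in capitals.
Adipoq: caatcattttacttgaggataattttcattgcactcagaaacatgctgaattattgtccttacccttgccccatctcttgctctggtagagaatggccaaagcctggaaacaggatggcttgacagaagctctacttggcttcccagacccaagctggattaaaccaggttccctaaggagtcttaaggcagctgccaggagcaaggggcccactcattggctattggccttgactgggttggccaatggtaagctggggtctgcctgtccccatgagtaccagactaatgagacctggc
Cfd: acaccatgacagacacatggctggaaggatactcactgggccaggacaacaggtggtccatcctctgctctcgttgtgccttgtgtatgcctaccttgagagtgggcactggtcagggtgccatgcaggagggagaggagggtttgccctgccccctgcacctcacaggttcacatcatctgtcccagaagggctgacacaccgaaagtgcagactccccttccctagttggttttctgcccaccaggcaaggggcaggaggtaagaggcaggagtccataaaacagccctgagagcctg
Plin1: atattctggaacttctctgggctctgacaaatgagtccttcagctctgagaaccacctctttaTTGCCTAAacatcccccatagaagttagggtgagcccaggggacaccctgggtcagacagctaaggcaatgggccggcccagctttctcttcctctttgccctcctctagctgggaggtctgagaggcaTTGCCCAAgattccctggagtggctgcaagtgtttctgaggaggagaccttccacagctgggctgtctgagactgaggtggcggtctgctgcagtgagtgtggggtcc
Plin4: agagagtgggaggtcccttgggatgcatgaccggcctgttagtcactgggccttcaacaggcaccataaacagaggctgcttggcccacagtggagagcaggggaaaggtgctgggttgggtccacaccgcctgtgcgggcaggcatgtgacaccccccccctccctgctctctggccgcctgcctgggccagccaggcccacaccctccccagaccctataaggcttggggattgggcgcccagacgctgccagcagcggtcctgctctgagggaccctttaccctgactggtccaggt
On either strand, TTGCNNAA was found in 3 of the 25 windows, those of Plin1, with 2 matches, Lep and Gpam, and in 10.8% of all 27025 windows. The direct repeat bound by PPARG with its partner RXR, searched in a single exact form, was in 0 of the 25 windows and in 12 of all 27025. ACANNNTGT, the core of the glucocorticoid receptor's site, was in 0 of the 25 and in 6.91% of all. A match of these letters is a description of the window and not evidence that a factor binds there.

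All values are normalised log2 signals, the log2 of the processed intensity minus the 75th percentile of that array, so that 0 stands for a signal equal to that percentile and a change of 1 stands for a 2-fold difference. Levels of different genes come from different probes and are not set against each other. The 75th percentile of the intensity lay between 459.4 and 656.2 over the 8 arrays. Spots well above background made up 61.5% to 61.9% of mouse spots in the E7386 group and 62.2% to 64.7% in the vehicle group. Values of arrays of the same group correlated at 0.985 to 0.994. All 8 arrays were on 1 slide, with the E7386 samples in one row and the vehicle samples in the other, so slide row and treatment cannot be told apart. Of the 10 markers of hair follicle epithelium 10 were measured, and their mean lay between 5.67 and 5.72 in the E7386 group and between 5.42 and 5.73 in the vehicle group.

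The amount of fat signal differed strongly from sample to sample, and it did so within both groups. Adipoq, which encodes the hormone adiponectin, measured -1.60, -2.97, -0.63 and -1.73 in E7386 replicates 1 to 4 and -4.48, -1.80, -1.15 and -1.56 in vehicle replicates 1 to 4. Cfd, the secreted protease adipsin, measured 1.79, 0.16, 1.90 and 1.49 with E7386 and -0.84, 1.32, 1.97 and 1.69 with vehicle. Plin1, the main coat protein of the fat droplet, measured -3.46, -4.58, -2.41 and -3.73 with E7386 and -4.81, -3.24, -2.56 and -3.22 with vehicle. For each of the 3 genes vehicle replicate 1 was the lowest of the 8 arrays, E7386 replicate 2 was the next lowest, and the groups overlapped. The fat content, the mean of the 3, was -1.09, -2.47, -0.38 and -1.32 with E7386 and -3.38, -1.24, -0.58 and -1.03 with vehicle. Its mean was -1.32 ± 0.87 with E7386 and -1.56 ± 1.25 with vehicle (SD, n = 4 each), and it spanned an 8.00-fold range over the 8 arrays. The difference of 0.24 between the groups is smaller than the SD within either of them, and it was -0.37 without vehicle replicate 1. In tissue samples of this kind fewer fat cells and less RNA per fat cell cannot be told apart.

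Striated muscle also differed from sample to sample. The muscle content, the mean of 18 skeletal muscle markers that were all measured, was 1.24, 1.99, 4.03 and 4.10 with E7386 and 0.91, 3.28, 3.82 and 4.02 with vehicle. It was low in E7386 replicates 1 and 2 and in vehicle replicate 1, and the groups overlapped, with a difference of -0.17. Vehicle replicate 1 was lowest for both contents and E7386 replicate 2 was low for both. E7386 replicate 1 separated them, with the second lowest muscle content and the fourth highest fat content of the 8 arrays. The set of 8 arrays therefore gives limited room to tell a gene that follows fat from one that follows muscle.

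**Figure D1:**
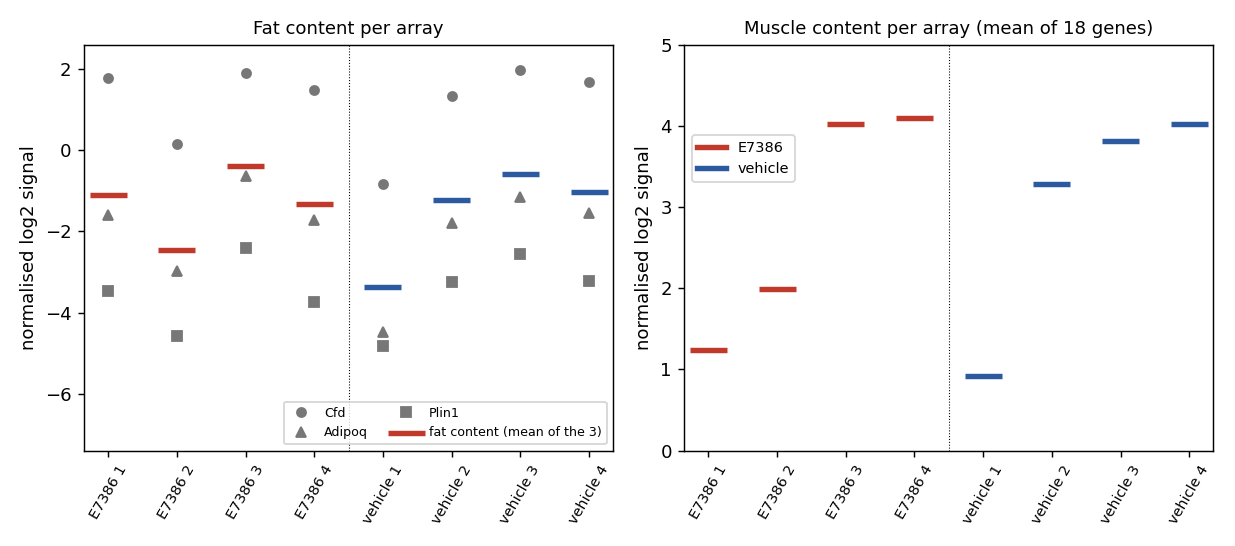
Normalised log2 signal on the 8 arrays, with E7386 replicates left of vehicle replicates. Left, Cfd, Adipoq and Plin1 as grey symbols and their mean, the fat content, as a bar. Right, the mean of 18 skeletal muscle markers. Vehicle replicate 1 is lowest in both panels, at -3.38 and 0.91, and E7386 replicate 1 is mid-range for fat, at -1.09, but low for muscle, at 1.24.

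Between E7386 and vehicle, 0 of the 31 genes passed an adjusted p of 0.05 in limma in either direction. Over all 25353 genes tested, 198 passed as higher with E7386 (0.781%) and 89 as lower (0.351%). Higher genes made up 69.0% of these calls, and 55.7% when each array was centred on its median. At an unadjusted p under 0.05 there were 6 of the 31, namely Plin4, G0s2, Lipe, Gpam, Pck1 and Pnpla2, and 3804 of all genes (15%). The mean was higher with E7386 for 19 of the 31 (61.3%), against 53.8% of all genes, and the median log2 change was 0.21, against 0.02 over all genes. All 4 E7386 arrays lay above all 4 vehicle arrays for 2 of the 31, Plin4 and Lipe, against 5.13% of all genes, and below them for 0, against 5.25% of all genes.

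Markers of other cells of the follicle were examined beside these genes. Of 12 sebaceous gland markers 11 were tested, 1 rose and 9 had a higher mean with E7386, and their mean per array lay between 1.24 and 1.59 with E7386 and between 1.02 and 1.24 with vehicle. The one that rose was Dgat2l6, an enzyme of the sebaceous gland, at 0.78 (SE 0.12, adjusted p = 0.0289), a call that did not hold in any fit with 1 array fewer, and Awat1, a wax synthase of the same gland, had a change of 0.58 (SE 0.13, adjusted p = 0.0881). Sebaceous cells also make and store lipid, and their part in the values of the genes described here was not tested. Of the 18 muscle markers, 10 endothelial, 8 macrophage, 8 preadipocyte and 6 brown fat markers tested, 0 passed in limma in either direction, 2 endothelial markers and 1 brown fat marker had an unadjusted p under 0.05, and the per-array means of each list overlapped between the groups.

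The secreted proteins of the fat cell overlapped between the groups. Adipoq had a log2 change of 0.51 (SE 0.77) and Cfd one of 0.30 (SE 0.65), and both signs turned without vehicle replicate 1, to -0.23 and -0.33. Retn, which encodes the hormone resistin, measured -1.47, -2.45, -0.44 and -1.23 with E7386 and -2.65, -1.25, -0.80 and -0.80 with vehicle. Its order over the arrays was close to that of the fat content, with vehicle replicate 1 and E7386 replicate 2 lowest, and its change was -0.02 (95% interval -1.22 to 1.18). Lep, which encodes leptin, was near the detection limit, detected with E7386 on 3 of 4 arrays and with vehicle on 4 of 4, with a change of 0.38 (SE 0.27, adjusted p = 0.566). Adipor2, a receptor for adiponectin, lay between 5.08 and 5.36 with E7386 and between 4.72 and 5.20 with vehicle.

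Among the proteins of the fat droplet, Plin4, a perilipin that coats small droplets, measured 3.15, 3.30, 4.47 and 4.36 with E7386 and 1.51, 2.34, 2.58 and 2.61 with vehicle. The lowest E7386 array lay above the highest vehicle array, and within each group the arrays with low muscle content were the lowest. The log2 change of 1.56 (SE 0.37), a 2.95-fold difference, had an adjusted p of 0.108 in limma and lay between 1.31 and 1.78 when each array in turn was left out. Cidec, which joins small droplets into the single large one of white fat cells, measured 0.04, -1.85, 0.68 and -0.28 with E7386 and -3.79, -1.49, -0.65 and -1.51 with vehicle. E7386 replicate 2, low in fat, lay among the vehicle arrays, and the change of 1.51 (SE 0.74) had an adjusted p of 0.393. Plin1 had a change of -0.09 (95% interval -1.40 to 1.21). Adig, a small protein of the fat cell, lay between 0.15 and 0.84 with E7386 and between 0.19 and 0.34 with vehicle.

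Of the 7 genes of lipolysis, 6 had a higher mean with E7386, against 53.8% of all genes, and 0 passed the test. The 6 include the inhibitor G0s2, and Abhd5 and Adrb3, whose changes each turned sign in 2 of the other settings tried. Pnpla2, the lipase that takes off the first fatty acid, measured 3.21, 3.17, 3.78 and 3.86 with E7386 and 2.64, 3.15, 3.05 and 3.23 with vehicle. The 2 groups touched only at vehicle replicate 4, which lay above E7386 replicates 1 and 2, and the change was 0.48 (SE 0.20, adjusted p = 0.312). Lipe, the hormone-sensitive lipase, measured -1.98, -2.20, -2.12 and -1.87 with E7386 and -2.25, -2.22, -2.44 and -2.36 with vehicle. The groups did not overlap, but by a narrow margin, and the change was 0.28 (SE 0.10, adjusted p = 0.240). G0s2, the inhibitor of Pnpla2, measured 0.72, 0.29, 1.13 and 0.89 with E7386 and 0.02, 0.29, 0.15 and 0.40 with vehicle, a change of 0.54 (SE 0.18, adjusted p = 0.213). Its only low E7386 array was replicate 2. Mgll, which releases the last fatty acid, had a change of 0.31 (SE 0.19), and Abhd5, the helper of Pnpla2, one of 0.08 (SE 0.21). Adrb3, the adrenergic receptor of fat cells, was well above background on 4 of 4 E7386 and 3 of 4 vehicle arrays, with a change of 0.11 (95% interval -0.87 to 1.08). Aqp7, the channel that lets glycerol out, had one of -0.02 (95% interval -0.46 to 0.42).

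The genes of fatty acid uptake overlapped between the groups. Lpl, which frees fatty acids from lipoproteins, measured 1.07, 0.63, 2.00 and 2.02 with E7386 and 0.74, 1.51, 1.84 and 2.03 with vehicle, with its low values on the 3 arrays of low muscle content. Its change was -0.10 (SE 0.39). Gpihbp1, which anchors Lpl to the capillary, had a change of 0.45 (SE 0.23, adjusted p = 0.399). Cd36, a fatty acid transporter, had one of 0.30 (SE 0.37), Fabp4, the fatty acid carrier of fat cells, macrophages and endothelium, one of 0.27 (SE 0.33), and Acsl1, which couples fatty acids to coenzyme A, one of -0.05 (SE 0.20).

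In the synthesis of glycerol and glycerolipids the changes had both signs. Pck1, which makes the precursor of glycerol from oxaloacetate, measured -2.10, -4.16, -1.89 and -2.48 with E7386 and -5.10, -3.79, -3.67 and -3.49 with vehicle. Of the E7386 arrays 3 lay above every vehicle array, and replicate 2, low in fat, lay below 3 of them. The change was 1.36 (SE 0.55, adjusted p = 0.300). Lpin1, a phosphatidate phosphatase, measured -0.82, -0.69, 0.37 and 0.38 with E7386 and -1.48, -0.80, -0.66 and -0.74 with vehicle, a change of 0.73 (SE 0.33, adjusted p = 0.353). Gpam, the acyltransferase of the first step of triglyceride synthesis, measured -3.85, -3.59, -3.33 and -3.46 with E7386 and -3.16, -3.24, -3.39 and -3.13 with vehicle, a change of -0.33 (SE 0.12, adjusted p = 0.271). Vehicle replicate 3 lay below E7386 replicate 3 alone, and the other vehicle replicates lay above every E7386 array. Gpd1, which makes glycerol phosphate from a glycolytic intermediate, had a change of -0.16 (95% interval -1.66 to 1.35) and lay between 0.45 and 2.35 with E7386 and between -0.03 and 2.48 with vehicle. Pcx, pyruvate carboxylase, and Agpat2, the acyltransferase after Gpam, had changes of -0.03 (95% interval -0.25 to 0.18) and -0.09 (95% interval -0.27 to 0.09).

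The 2 transcription factors that drive fat cell formation overlapped between the groups. Pparg had a change of -0.0020 (95% interval -0.29 to 0.29) and Cebpa one of -0.16 (95% interval -0.58 to 0.25). Slc2a4, the insulin-dependent glucose transporter, had a change of 0.02 (95% interval -1.25 to 1.28), and Car3, a carbonic anhydrase abundant in fat cells and slow muscle, one of -0.09 (95% interval -1.83 to 1.66). Both varied widely within the groups, Slc2a4 lying between 2.17 and 3.98 with E7386 and between 1.93 and 3.63 with vehicle.

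**Figure D2:**
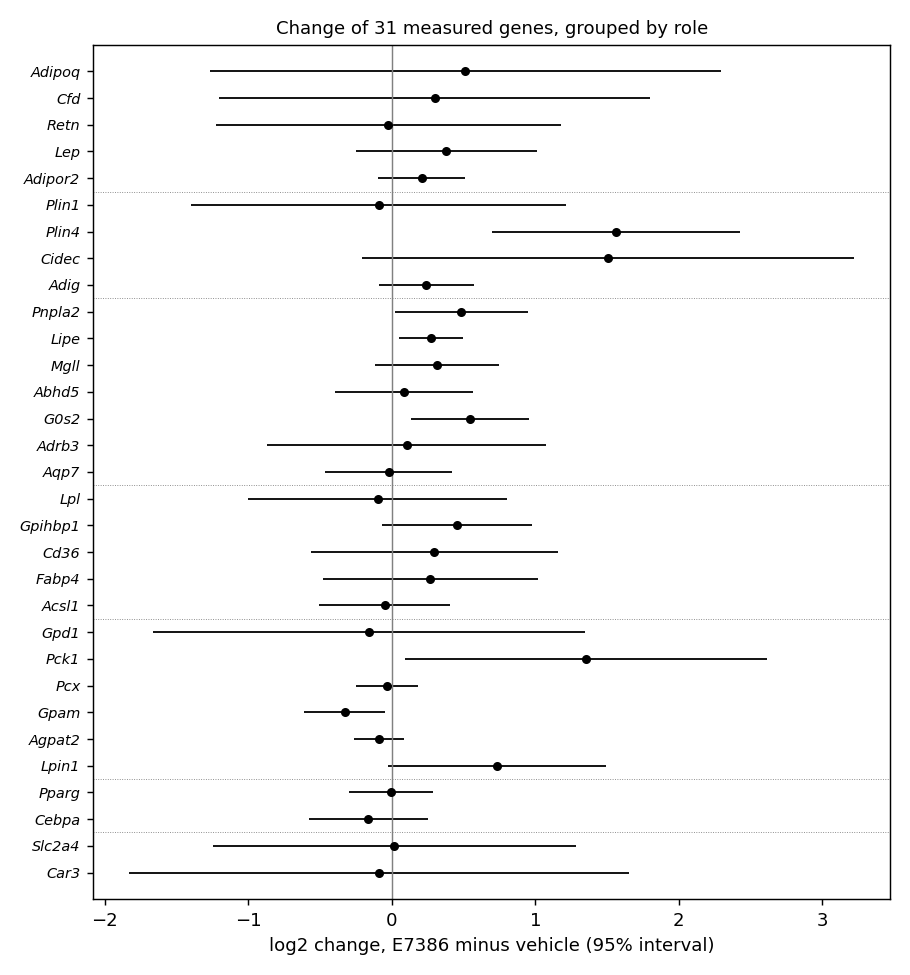
Log2 change, E7386 minus vehicle, of the 31 tested genes with its 95% interval, grouped by role from adipokines at the top to other adipocyte genes at the bottom. Plin4 stands at 1.56, Cidec at 1.51 and Pck1 at 1.36, and the genes with the widest intervals are those that vary most between arrays of the same group.

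To separate genes that follow the fat content from genes that differ between the groups, the fat content of each array was added to the fit beside the group. The slope is the log2 change of a gene per unit of fat content within the groups, so a slope of 1 means that the gene varied as much as the mean of Adipoq, Cfd and Plin1. Leaving out those 3, 28 genes were examined, and 2 passed an adjusted p of 0.05 with a positive slope, Cidec and Car3. Over all 25350 genes there were 4 (0.0158%). The slope of Cidec was 1.13 (SE 0.07, adjusted p = 0.00527) and that of Car3 1.13 (SE 0.09, adjusted p = 0.0288). Car3 measured -0.59, -1.73, 0.86 and -0.20 with E7386 and -2.40, 0.09, 0.54 and 0.45 with vehicle, in nearly the order of the fat content within each group. The call of Cidec was lost without vehicle replicate 1 (slope 1.25, adjusted p = 0.197). The call of Car3 held in 1 of the 8 fits with 1 array fewer, that without E7386 replicate 1 (adjusted p = 0.0125), while its slope lay between 1.09 and 1.19 in all 8. The adjusted p of Car3 was 0.204, 0.147 and 0.0847 without E7386 replicates 2, 3 and 4 and 1.0, 0.107, 0.0973 and 0.124 without vehicle replicates 1 to 4.

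Other fat cell genes had smaller positive slopes that missed the threshold. That of Retn was 0.77 (SE 0.08, adjusted p = 0.0736), that of Gpd1 0.79 (SE 0.23), that of Pck1 0.76 (SE 0.14) and that of Slc2a4 0.64 (SE 0.21), the last 3 with an adjusted p of 0.753. Of the 28 genes 21 had a slope above 0, against 41.6% of all genes, and 6 had a slope over 0.5, against 1.25% of all genes. The median slope was 0.18, against -0.02 over all genes. Of the 18 muscle markers 17 also had a slope over 0.5, with a median of 1.06 and 0 past the threshold, so a positive slope on fat content is not particular to fat genes on these arrays. Fabp4 had a slope of -0.21 (SE 0.17), Adipor2 one of -0.10 (SE 0.07) and Abhd5 one of -0.16 (SE 0.10), and none of the 3 passed the threshold. Pparg and Cebpa had slopes of 0.09 (SE 0.07) and 0.12 (SE 0.09).

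The muscle content was then put in the place of the fat content, an analysis added after the values had been seen. Of the 31 genes 8 passed with a positive slope on muscle content, against 2.29% of all genes. They were Gpd1 (slope 0.74, SE 0.05), Slc2a4 (0.62, SE 0.04), Plin4 (0.42, SE 0.04), Cd36 (0.41, SE 0.04), Lpl (0.41, SE 0.07), Lpin1 (0.35, SE 0.05), Pnpla2 (0.21, SE 0.03) and Acsl1 (0.20, SE 0.04). Gpd1, Slc2a4, Plin4 and Cd36 kept this call whichever array was left out. Lpin1 lost it without E7386 replicate 1 (adjusted p = 0.0596), Lpl and Pnpla2 kept it in 3 of the 8 such fits and Acsl1 in 1. The adjusted p of Lpl was 0.0874 and 0.0847 without E7386 replicates 3 and 4 and 0.116, 0.0554 and 0.0705 without vehicle replicates 1, 3 and 4. That of Pnpla2 was 0.113, 0.102 and 0.0936 without E7386 replicates 1, 3 and 4 and 0.109 and 0.0773 without vehicle replicates 1 and 4. That of Acsl1 was under 0.05 without vehicle replicate 2 alone and lay between 0.0828 and 0.146 without any other array. Cidec had a slope of 0.60 on muscle content (SE 0.23, adjusted p = 0.220) and Car3 one of 0.73 (SE 0.17, adjusted p = 0.0851). With both contents in the fit, Cidec had a slope of 1.20 on fat (SE 0.10, adjusted p = 0.147) and -0.07 on muscle (SE 0.07), whereas Gpd1 had one of 0.11 on fat (SE 0.09) and 0.67 on muscle (SE 0.07, adjusted p = 0.00889). Slc2a4, Plin4 and Cd36 likewise kept slopes of 0.60, 0.41 and 0.42 on muscle, with adjusted p of 0.0100, 0.0402 and 0.0396, beside slopes of 0.03, 0.01 and -0.02 on fat.

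**Figure D3:**
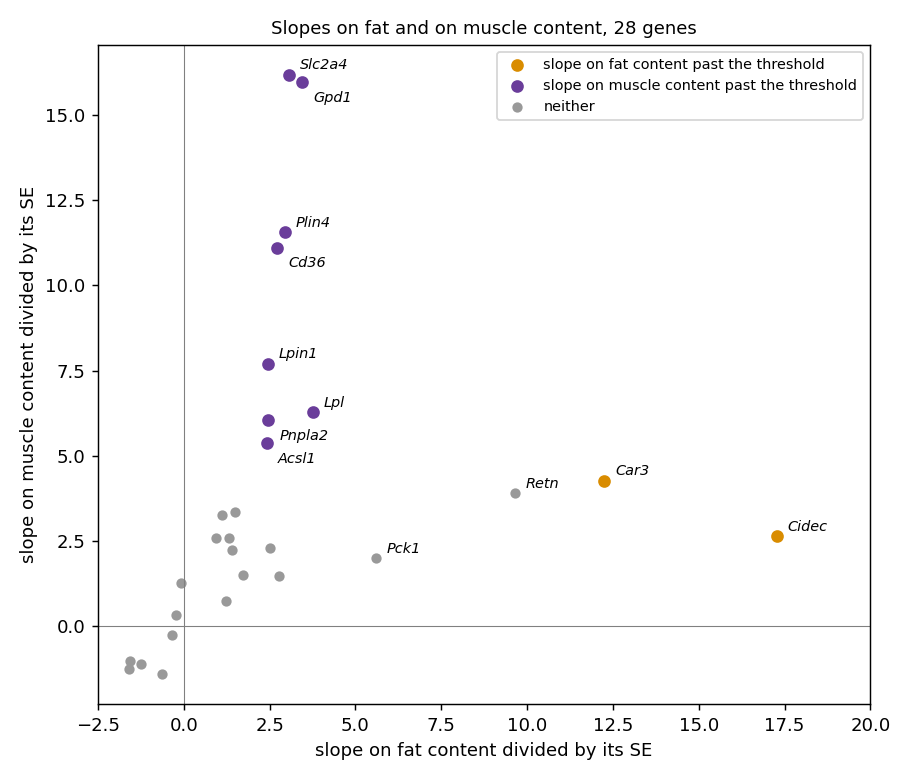
Slope on fat content divided by its SE against slope on muscle content divided by its SE, for the 28 genes without Adipoq, Cfd and Plin1. Cidec and Car3, in orange, passed the threshold for fat, 8 genes in purple passed for muscle, and Retn and Pck1, in grey, passed neither.

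Once the fat content was taken into account, Cidec was the only one of the 31 genes to pass between the groups. Over all 25353 genes 197 passed in either direction at equal fat content (0.777%). Cidec was higher with E7386 by 1.24 (SE 0.12, adjusted p = 0.0106), close to its change of 1.51 without that term but with a much smaller SE. Cidec minus the fat content of the same array was 1.13, 0.62, 1.06 and 1.05 with E7386 and -0.42, -0.25, -0.07 and -0.48 with vehicle, without overlap. This restates the fit and is no further evidence. Pck1, which did not pass, was also without overlap after this subtraction, at -1.69 to -1.01 with E7386 and -3.10 to -1.72 with vehicle. Without any subtraction 10.4% of all genes did not overlap, and the share after it was not computed. The call of Cidec held in 5 of the 8 fits with 1 array fewer, with changes between 1.15 and 1.34. It was lost without E7386 replicate 3 (adjusted p = 0.0575), E7386 replicate 4 (0.0525) and vehicle replicate 3 (0.0537). It was also lost with fat content from Adipoq alone or from Cfd alone. The second probe of Cidec gave a change of 1.26 between the groups, without the fat term, beside 1.51 on the probe used. Plin4 at equal fat content had a change of 1.46 (SE 0.27, adjusted p = 0.0733) and Pck1 one of 1.17 (SE 0.25, adjusted p = 0.108). Adipoq and Plin1 are part of the fat content, so their values at equal fat content are not given.

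At equal muscle content, again examined after the values had been seen, 3 of the 31 genes passed, all higher with E7386, against 1.28% of all genes. Plin4 was higher by 1.63 (SE 0.09, adjusted p = 0.00226), against an SE of 0.37 without the muscle term, and it kept the call whichever array was left out, with changes between 1.57 and 1.72. Lpin1 was higher by 0.79 (SE 0.12, adjusted p = 0.0243) and Pnpla2 by 0.52 (SE 0.09, adjusted p = 0.0360). With 1 array fewer Lpin1 kept the call in 2 of 8 fits, without E7386 replicate 2 and without vehicle replicate 1, and Pnpla2 in 1, without E7386 replicate 2. In the other fits the adjusted p of Lpin1 lay between 0.0600 and 0.104 and that of Pnpla2 between 0.0706 and 0.139. The second probe of Lpin1 stayed at background on all 8 arrays. With fat and muscle content both in the fit, Plin4 was higher by 1.63 (SE 0.10, adjusted p = 0.0123) and Cidec by 1.21 (SE 0.12, adjusted p = 0.0202), whereas Lpin1 at 0.80 and Pnpla2 at 0.52 had adjusted p of 0.0551 and 0.0800.

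**Figure D4:**
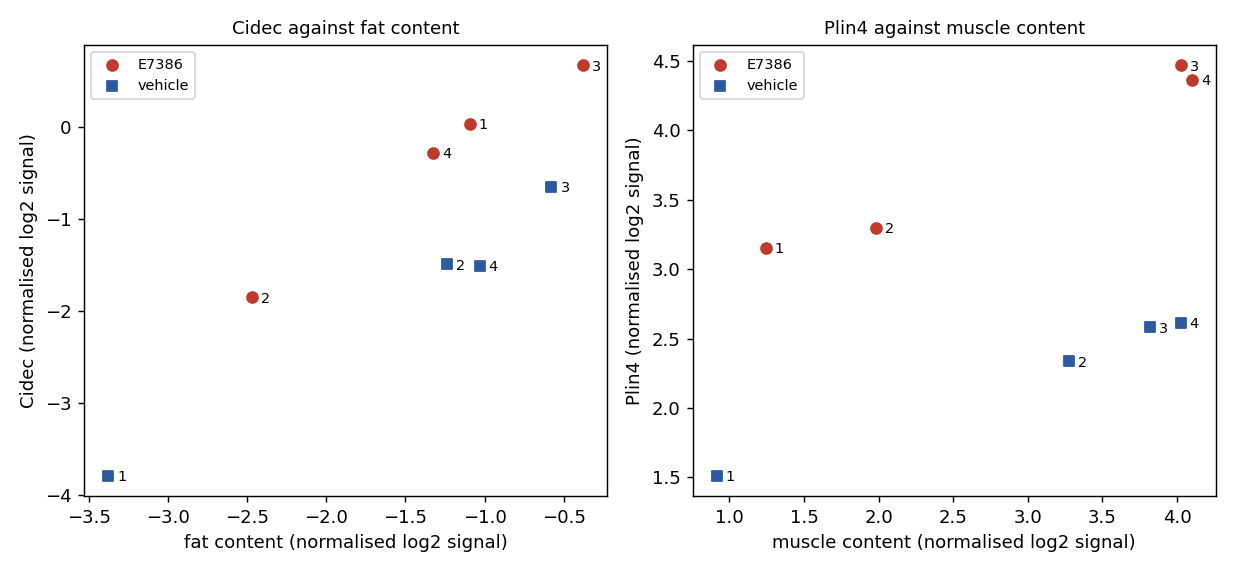
Left, Cidec against the fat content, and right, Plin4 against the muscle content, all as normalised log2 signal, with E7386 as red circles, vehicle as blue squares and the replicate number beside each point. In both panels the E7386 points run along a line above the vehicle points, and in the left panel E7386 replicate 2 (-1.85) is no higher than vehicle replicates 2 to 4 but lies far to their left.

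The wider fat metabolism was covered by 6 further lists, in which 6 genes passed between E7386 and vehicle. Of 9 tested genes of lipoprotein lipase handling 1 rose and 0 fell. This was Angptl4, a secreted inhibitor of Lpl that is induced by fasting, which measured 4.68, 3.50, 4.50 and 4.47 with E7386 and 2.09, 1.92, 1.32 and 1.82 with vehicle. Every E7386 array lay above every vehicle array, by a log2 change of 2.50 (SE 0.28, adjusted p = 0.00801), and the slope on fat content was 0.04 (SE 0.16).

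Among the genes of fatty acid oxidation, Cpt1a, which brings fatty acids into mitochondria, had a change of 0.51 (SE 0.11, adjusted p = 0.0883). Pdk4, a kinase that shuts off pyruvate oxidation in fasting, measured 1.70, 1.28, 3.71 and 4.00 with E7386 and -1.14, -0.69, 0.15 and 0.99 with vehicle. It did not overlap between the groups but varied within both, and its change of 2.84 (SE 0.72) had an adjusted p of 0.121. At equal muscle content, again examined after the values had been seen, the change of Pdk4 was 2.96 (SE 0.37, adjusted p = 0.0170). In that fit 1.28% of all genes passed as higher with E7386. Of the 20 other settings tried for the change of Pdk4, it passed in 1, the one with the muscle term.

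Of 11 genes of fatty acid synthesis 0 rose and 0 fell at the adjusted threshold, and 5 had a higher mean with E7386. An unadjusted p under 0.05 was found for 6, against 15% of all genes. Of these 6, Mlxipl was higher with E7386, by 0.41 (SE 0.16, adjusted p = 0.282). For 5 of the 11 all E7386 arrays lay below all vehicle arrays, against 5.25% of all genes. Srebf1, a transcription factor that switches on lipid synthesis, had a change of -0.79 (SE 0.15, adjusted p = 0.0516) and Scd2, a desaturase, one of -0.53 (SE 0.12, adjusted p = 0.0967). Of 26 other genes of the droplet and of lipolysis 1 rose and 0 fell. This was Irs2, an adaptor of the insulin receptor, at 0.88 (SE 0.15, adjusted p = 0.0411), and Insr, the receptor itself, had a change of 0.63 (SE 0.13, adjusted p = 0.0659). Irs2 stayed past the threshold without E7386 replicate 1, and its adjusted p lay between 0.0853 and 0.126 without any other array.

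Of 16 other factors of fat cell formation 2 rose and 1 fell. Zbtb16 was higher with E7386 by 1.77 (SE 0.21, adjusted p = 0.00999) and Klf9 by 0.93 (SE 0.17, adjusted p = 0.0462), both transcription factors known to respond to glucocorticoids. Ppargc1b, a coactivator of mitochondrial genes, fell by 0.72 (SE 0.12, adjusted p = 0.0399). Ppargc1a, in the same list, went the other way by 1.54 (SE 0.56, adjusted p = 0.257), without overlap between the groups. Angptl4 and Zbtb16 kept their calls whichever array was left out. Klf9 lost its call in 7 of these fits and kept it without E7386 replicate 2, and that of Ppargc1b was lost in all 8. Of 14 other white adipocyte markers 0 rose and 0 fell, 2 had an unadjusted p under 0.05, and Mest, a gene linked to fat cell growth, had the smallest p, with a change of -0.86 (SE 0.18, adjusted p = 0.0774). Pnpla3, a lipase related to Pnpla2, came next with 0.40 (SE 0.16, adjusted p = 0.283). None of these 6 lists had a gene past the threshold for the slope on fat content.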

How the data were processed

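The authors made the scanner files, 1 per array, with Agilent Feature Extraction (version 11 per the submitters' processing notes, 11.5.1.1 per the file headers), and the deposited processed signal used here is a background-corrected intensity per spot. The authors' value table, deposited as log2 values, has a median of 5.312 in every column and the same sorted values in each, so it was quantile normalised; it was used as an alternative. Per the labels, RNA was converted to Cy3-labelled cRNA. From 62976 spots per array, 59305 for mouse transcripts were kept, 107 to 150 non-uniform or outlier spots were left out, and spots were averaged over 55681 probes. Of 29150 probes with a RefSeq accession, 27503 were matched to a symbol (RefSeq, GRCm38.p6), and 28178 probes stayed unnamed here. A gene is represented by its probe with the highest mean over the 8 arrays and was tested where, in either group, 3 or more of the 4 arrays had this probe well above background. The processed log2 signal minus the array's 75th percentile was fitted in limma 3.58.1 (lmFit, eBayes; R 4.3.3), by group alone and with fat or muscle content per array as a further term, and adjusted with Benjamini-Hochberg over all genes.

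The members and the gene lists were chosen with earlier results of these data known. The text names all 32 members, of each further list every gene past an adjusted p of 0.05 and the 2 with the smallest p, and Angptl4 and Pdk4 in any case. Mlxipl and Ppargc1a are named besides, since their changes were opposite to those of other genes named from their lists. Some genes that this rule names are left out of the text. The muscle term as the only content in the fit was read for the members and for Pdk4 after the values had been seen. Alternatives were the normalization, the background correction (normexp with an offset of 50 on the median signal, since no mean signal is in the files), the detection filter, the probe per gene, the outlier spots, the variance model, array weights, the replicate number as a block, the score genes and leaving out each array. The number of arrays limits the precision. On simulated data with 200 changed genes in each of 5 runs, 77.7% of log2 changes of 1 between the groups were recovered, with 5.87% of calls false (25126 genes). The simulated noise was independent between genes and had the spread left after the fat term. Genes given a slope on fat content were left out of this test. The share recovered therefore does not apply to genes that vary with fat or muscle content, such as Cidec (SE 0.74 between the groups). A slope of 1 on fat content was recovered for 93.5% of genes, with 5.73% of calls false (25326 genes), and a change of 1 at equal fat content for 75.6%, with 5.43% false (25326 genes). The simulation held 200 genes with a slope of exactly 1 and no muscle content. On the arrays 4 genes passed for the slope, and fat and muscle content correlated at 0.73. With fewer genes that follow fat the adjusted threshold is stricter, so the share recovered for the slope does not carry over to these arrays.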

Additional observations from a re-analysis of the deposited data

Results flagged for a closer look

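Car3 in vehicle replicate 1 stood apart from the other arrays of its group. It measured -2.40 there, against 0.09 to 0.54 in the other 3 vehicle replicates, so that the gap to the nearest of them made up a share of 0.845 of the range of the group. The fat content of the same array, -3.38, and its muscle content, 0.91, were also the lowest of the 8 arrays. Of 66 groups of 4 arrays examined in this way, chance would give about 3.3.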

How the results depend on the processing

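With 4 arrays a group on 1 slide, changes of genes that vary with fat or muscle content are known only within wide intervals, and signals near background (Lep, Adrb3) are the least certain. Of the 31 genes, 0 passed between E7386 and vehicle under every setting tried except with muscle content as a covariate, where 3 did. All genes called numbered 287, against 155 with no detection filter, 48 with the replicate block, 557 with the muscle covariate and 84 (without E7386 replicate 3) to 251 with an array left out. The 6 calls in the further fat metabolism lists became 10 with normexp, 3 with no filter, 10 with trend and robust variance, 1 with the replicate block, 15 with the muscle covariate and 3 to 5 with an array left out. The difference in fat content lay between -0.37 (without vehicle replicate 1) and 0.62 (without E7386 replicate 2).

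The 4 genes that follow fat content, 2 of them among the 28, became 1 and 1 with no filter, 2 of all genes with detection on all 8 arrays, 0 and 0 with the muscle covariate, 2 of all genes with fat content from Adipoq alone, 0 and 0 from Cfd alone or Plin1 alone, and 0 to 4 and 0 to 2 with an array left out. With array weights they became 2150 and 13, but those weights did not converge and reached 68.4 on vehicle replicate 1. The 197 genes that differ at equal fat content became 131 with the array median, 306 with normexp, 68 with no filter, 349 with trend and robust variance, 430 with array weights and 36 to 172 with an array left out. Of the 31 genes, 1 differed at equal fat content, against 2 with normexp, 3 with array weights, 2 with the muscle covariate, 0 with fat content from Adipoq alone or Cfd alone and 0 to 2 with an array left out. The 8 that follow muscle content became 14 with array weights and 5 to 10 with an array left out, and the 3 that differ at equal muscle content became 1 with no filter, 5 with array weights and 1 to 4 with an array left out. The causes were not tested.

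Deviations of same-numbered samples correlated at 0.49, -0.17, 0.29 and 0.18, and only replicate 1 correlated best with its own number. These correlations do not settle whether the numbers pair the samples, since deviations over all genes also hold the differences in fat and muscle content. With the replicate block 0 genes passed in each test with a content term, members and all genes alike, and the adjusted p was 0.0544 for Plin4 at equal muscle content, 0.0653 for Angptl4 and 0.0862 for Zbtb16.

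Changes near 0 turned sign, none of them called. That of Slc2a4 was -0.054 with the array median. Pparg was at 0.019 in the authors' table, 0.030 with outlier spots kept, 0.0030 with array weights and 0.015 with the muscle covariate, and Retn at 0.0100 with normexp, 0.10 with the mean of all probes, 0.062 with array weights and 0.060 with the muscle covariate. Plin1 was at 0.034 with normexp and 0.0078 with array weights, Aqp7 at 0.062 with normexp, 0.0013 with array weights and 0.0053 with the muscle covariate, and Car3 at 0.034 with array weights and 0.039 with the muscle covariate. The slope of Cd36 on fat was -0.020 with the muscle covariate. With an array left out the change lay between -0.13 and 0.084 for Aqp7, -0.36 and 0.17 for Lpl, -0.16 and 0.062 for Acsl1, -0.68 and 0.16 for Gpd1, -0.075 and 0.064 for Pparg, -0.45 and 0.33 for Retn, -0.54 and 0.25 for Plin1, -0.78 and 0.35 for Car3, -0.38 and 0.34 for Slc2a4, -0.35 and 0.33 for Adrb3, -0.23 and 0.93 for Adipoq, -0.33 and 0.69 for Cfd, -0.057 and 0.21 for Abhd5 and -0.082 and 0.016 for Pcx. Lep and Adrb3 have no value with detection on all 8 arrays.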

Other observations

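Beside Cidec and Car3, 2 of the 25350 genes examined had a slope on fat content past the threshold. They were Fsd2, a gene known from striated muscle, with a slope of 1.08 (SE 0.10, adjusted p = 0.0460), and a transcript without a symbol, with a slope of 0.60 (SE 0.06, adjusted p = 0.0460). Both were named after their values were seen. Fsd2 was well above background on 3 of 4 arrays of each group, and the transcript on 0 E7386 and 3 vehicle arrays, so its values lie near background. The change of Fsd2 between E7386 and vehicle was 0.11 (SE 0.73, adjusted p = 0.967).

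The other cells of the follicle gave these values. Of the brown fat markers, Dio2, which activates thyroid hormone, had a change of -0.92 (SE 0.18, adjusted p = 0.0657) and all 4 E7386 arrays lay below all 4 vehicle arrays, whereas Cidea, a droplet protein of brown fat and of sebaceous cells, had a change of 0.27 (SE 0.14, adjusted p = 0.397). The endothelial receptor Tek had a change of -0.51 (SE 0.13, adjusted p = 0.130) and the endothelial sialomucin Emcn one of 0.41 (SE 0.14, adjusted p = 0.228). Of the macrophage markers, Adgre1 and Fcer1g had changes of -0.37 (SE 0.19) and -0.18 (SE 0.17). Of the preadipocyte markers, Pdgfra and Dlk1 had changes of 0.18 (SE 0.11) and 0.23 (SE 0.15). The muscle genes Myh2 and Mb had changes of -0.32 (SE 0.43) and -0.53 (SE 0.90). The follicle keratin Krt75 had a change of 0.58 (SE 0.24, adjusted p = 0.305) and the stem cell gene Lgr5 one of 0.12 (SE 0.10, adjusted p = 0.644).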
